A study of Caenorhabditis elegans with 6 samples.

Results

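The 3 vehicle (EtOH) libraries of a 6-library series were ranked gene by gene, to describe the RNA that came down with tagged ribosomes in animals that had not met the drug. The animals were young adult *Caenorhabditis elegans* of strain CLP1481, which carries the array twnEx675 with Ptbh-1::rpl-22::3xHA and Pgcy-8::gfp. They were raised at 20 °C and spent 6 h on bacteria with EtOH before harvest. The other 3 libraries came from animals of the same strain kept on antimycin A and were not compared here. Each EtOH library belongs to an independently done experiment. Of the 46904 genes in the deposited table, 20191 are protein-coding, and these were ranked by their mean TPM (TPM is a share of the library corrected for transcript length, on a scale with a fixed total) over the 3 EtOH libraries. A value listed at the table's floor of 0.0001 TPM was taken as 0.

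*tbh-1* encodes tyramine beta-hydroxylase, which makes the neurotransmitter octopamine from tyramine. It is known to be expressed in the RIC interneurons of the head and in the sheath cells that wrap the ovary of the hermaphrodite. In translating ribosome affinity purification, a promoter drives an epitope-tagged ribosomal protein in chosen cells, and RNA is recovered with the tagged ribosomes from a lysate of whole animals. RNA of other cells that is carried through the pull-down is counted as well. The tag here is limited to cells in which this promoter fragment on an array named twnEx675 is active. Libraries of input RNA or of untagged animals were not used here, so an abundant RNA cannot be called enriched by the pull-down. In RNA pooled over an animal, fewer cells of a type and less RNA per cell cannot be told apart.

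The libraries of EtOH replicates 2 and 3 were alike, and replicate 1 stood apart. Over the 10344 protein-coding genes at a mean of 1 TPM or more (51.2% of the protein-coding genes), 1.93% differed by 2-fold or more on log2(TPM + 1) between replicates 2 and 3. That share was 19.4% between replicates 1 and 2 and 27.1% between replicates 1 and 3. Of the same genes, 69.2% were highest in replicate 1, and 39.7% after the libraries were scaled by the median of gene-wise ratios. The most abundant genes took a smaller share in replicate 1, where 129 genes held 50% of the protein-coding TPM, against 89 and 76 genes in replicates 2 and 3. Protein-coding genes held 84.6% to 88.4% of all TPM and ribosomal RNA genes 8.65% to 12.9%. Read counts are not given with TPM, so the depth behind each value is unknown.

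Proteins of the eggshell led the ranking. *perm-2* and *perm-4* belong to a class named for its permeable-eggshell mutants, and their proteins are part of the vitelline layer, the outermost layer of the eggshell. *perm-2* stood at 66560, 76756 and 82788 TPM in EtOH replicates 1, 2 and 3, which is 6.66%, 7.68% and 8.28% of all TPM. *perm-4*, at the third rank, stood at 21171, 24618 and 31108 TPM. Both genes were lowest in replicate 1, and the ratio of *perm-2* to *perm-4* was 3.14, 3.12 and 2.66. The pair are direct neighbours on chromosome IV of build WBcel235, on opposite strands that point away from each other, with 1682 bp between *perm-4* (1121457 to 1125107) and *perm-2* (1126790 to 1128848). No other member of the class came near them. *perm-5* stood at 175 TPM ± 28.1 (SD, n = 3), *perm-3* at 60.1 TPM ± 7.61 and *perm-1* at 4.86 TPM ± 3.07.

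The second rank was held by *far-2*, one of a family of secreted proteins that bind fatty acids and retinol. *far-2* stood at 37162, 32228 and 37092 TPM, and *far-1*, its neighbour 499 bp away on chromosome III, at 6361, 5399 and 5696 TPM. Both were lowest in replicate 2, and the ratio of *far-2* to *far-1* was 6.11 ± 0.356. The remaining 6 *far* genes were far lower, with *far-6* next at 56.4 TPM ± 17.6.

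Some genes without a name or a described product stood near the top. Of the 20 most abundant genes, 6 carry only a sequence name. Of the 10344 genes at 1 TPM or more, 3979 do, so such names were not more frequent at the top. Among the 6, *C44B7.5* held the fourth rank at 19728, 25544 and 24752 TPM. *T04G9.7* followed at 17027, 25214 and 27681 TPM and *B0513.4* at 14964, 20017 and 21576 TPM. In all of these, replicate 1 was the lowest library. The file describes no product for *Y119D3B.21* (6088 TPM ± 806) or *C15H9.9* (5031 TPM ± 381) either. The sixth, *Y82E9BR.3*, is described as a lipid-binding subunit of the mitochondrial ATP synthase, and stood at 7556, 5733 and 6341 TPM. It overlaps *lelo-2*, and without a stated strand setting the reads of overlapping genes cannot be told apart.

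Next came *dct-16*, genes of lysosomal and antimicrobial classes, and *try-14*. *dct-16*, a gene named as controlled by the transcription factor DAF-16/FOXO, stood at 8359, 10432 and 15041 TPM. *ilys-5*, an invertebrate-type lysozyme, stood at 7949, 9695 and 10412 TPM. In both, replicate 1 was the lowest and replicate 3 the highest. The saposin-like genes *spp-14* (5693, 8449 and 10375 TPM) and *spp-5* (5659, 7874 and 9894 TPM) encode small proteins of a class that acts on membranes, and had the same order of libraries. *cpl-1*, the lysosomal protease cathepsin L, did not share that order, at 7882, 8988 and 6983 TPM. *try-14*, for which the file describes no product, stood at 5209, 7156 and 7942 TPM.

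**Figure D1:**
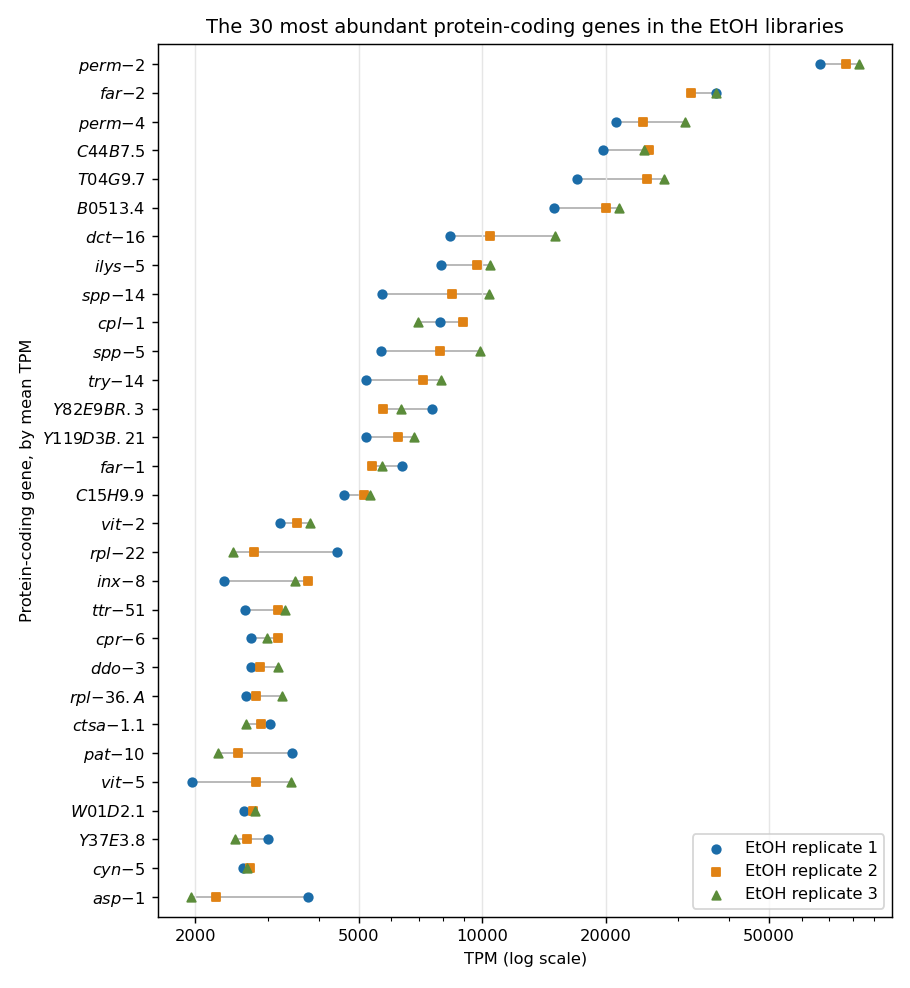
TPM of the 30 most abundant protein-coding genes (vertical axis, ordered by mean TPM) in each of the 3 EtOH libraries, on a log axis. Each symbol is 1 library and the grey line joins the lowest and the highest. *perm-2* lies apart at 66560 to 82788 TPM, and replicate 1 (circles) is the lowest library for 21 of the 30 genes. It is the lowest for 1674 of the 10344 protein-coding genes at a mean of 1 TPM or more.

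The rest of the first 30 mixed tissues and general functions. The plot of the 30 genes shows a long flat tail, with ranks 17 to 30 between 3521 and 2655 TPM. *vit-2* and *vit-5* encode vitellogenins, the yolk proteins made in the intestine, and stood at 3521 TPM ± 287 and 2732 TPM ± 732. *cpr-6* (2963 TPM ± 225) and *asp-1* (2655 TPM ± 973) encode a cathepsin B-like and an aspartyl protease. *pat-10*, the troponin C of body wall muscle, stood at 2750 TPM ± 618 and *inx-8*, a gap junction subunit of the gonadal sheath, at 3201 TPM ± 753. The others were *rpl-22*, *rpl-36.A* and *W01D2.1*, which encode ribosomal proteins, the transthyretin-related *ttr-51*, the D-aspartate oxidase gene *ddo-3*, the carboxypeptidase gene *ctsa-1.1*, the cyclophilin gene *cyn-5*, and *Y37E3.8*. Of the 30 genes, 6 are on a list of cell type markers: 4 of the intestine and 1 each of gonadal sheath and muscle.

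The ranking was steadier than the values. The 20 most abundant genes held 29.0% ± 3.47 of all TPM, at 25.6%, 29.3% and 32.4% when each library was ranked on its own. Of these 20, 15 were lowest in replicate 1 and 13 highest in replicate 3. Over the 10344 genes at 1 TPM or more, 1674 were lowest in replicate 1 and 15.9% highest in replicate 3. None of them fell below rank 34 in any library, and 19 of the 20 stayed when replicate 1 was left out. At the edge of the first 20, *ttr-51* stood at 3039 TPM ± 352 and the next gene, *cpr-6*, at 2963 TPM ± 225, a difference smaller than the spread of either. The median coefficient of variation over libraries was 13.9% in the first 20 genes and 30.5% over genes at 1 TPM or more.

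The abundant genes were short. The first 20 had a median genomic span of 1200 bp, against 2319.5 bp over genes at 1 TPM or more. Of the first 20, 7 were on chromosome X, 5 on IV and 0 on I, chromosomes that hold 13.8%, 16.3% and 14.4% of the protein-coding genes. The first 100 were spread more evenly, with 16 on X, 21 on IV and 18 on I. Chromosome IV held 26.6% ± 1.37 of the protein-coding TPM, and 18.1% ± 0.144 of the remainder once the first 20 genes were set aside. Chromosome I moved the other way, from 13.1% ± 1.09 to 19.7% ± 0.443. Among the first 100 genes there were 7 pairs of direct neighbours, a count for which no background was drawn. Beside the *perm* and *far* pairs, these included *vit-4* with *vit-3*, and *rps-14* with *rpl-36*, which encode a protein of the small and of the large ribosomal subunit.

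Grouped by family, the permeable-eggshell class and the ribosome held the largest shares. The class is named for a mutant trait, and its member *perm-3* is described as a subunit of a complex of the endoplasmic reticulum membrane. The 5 *perm* genes together held 8.80%, 10.2% and 11.4% of all TPM in replicates 1, 2 and 3, of which *perm-2* was 74.4%. The 78 genes of cytosolic ribosomal proteins, taken by their *rpl* and *rps* names, held 10.5%, 8.65% and 9.58%. That share was spread over many genes, since the most abundant of them was 3.37% of the family. The ranges of these 2 families over the libraries overlapped, and replicate 1 had them in the opposite order to the others. The 8 *far* genes followed at 4.14% ± 0.321 and the 31 saposin-like genes at 2.40% ± 0.628. No saposin-like gene at 1 TPM or more was highest in replicate 1, and 12 of 18 were highest in replicate 3, against 15.9% of all genes at that level. After scaling by the median of ratios the count was 13 of 18, against 36.5%.

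Several digestive and secreted families followed, among others. Cathepsin-type cysteine proteases held 1.72% ± 0.111 of all TPM, led by *cpl-1*, *cpr-6* and *cpz-1*, and aspartyl proteases 0.698% ± 0.128, led by *asp-1*, *asp-6* and *asp-2*. The 6 vitellogenins held 1.32% ± 0.230, at 1.08%, 1.35% and 1.54% in the 3 libraries. *vit-3*, *vit-4* and *vit-5* are near-identical copies, so reads may have been shared out between them, and *vit-3* stood at 1303, 2176 and 2964 TPM. Lysozymes held 1.25% ± 0.166, of which *ilys-5* was 75.0%, ahead of *lys-4* (1386 TPM ± 270) and *lys-7* (733 TPM ± 101). The C-type lectins, carbohydrate-binding proteins with roles in immunity, have 241 genes but held 0.485% ± 0.0183, led by *clec-47*, *clec-63* and *clec-50*. Transthyretin-like genes held 0.908% ± 0.129, led by *ttr-51*, *ttr-46* and *ttr-41*.

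**Figure D2:**
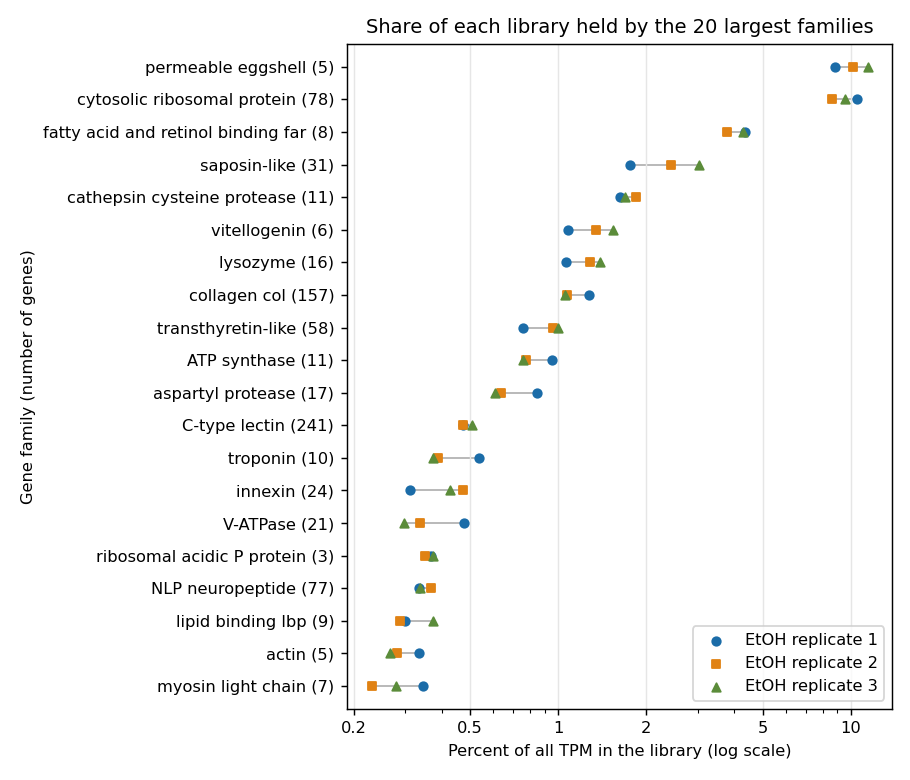
Share of all TPM held by the 20 largest of 37 gene families (vertical axis, number of genes in brackets) in each EtOH library, on a log axis. Each symbol is 1 library. The permeable eggshell class and the cytosolic ribosomal proteins lie near 10%, and the saposin-like family is among the most spread, at 1.76% to 3.02%.

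The plot of family shares ends with families near 0.3% of all TPM. The ATP synthase family, which leaves out *Y82E9BR.3*, held 0.828% ± 0.106, and 0.808% ± 0.0897 without the mitochondrially encoded *atp-6*, with *hpo-18*, *atp-5* and *atp-2* in front, and the proton pump of lysosomes and other organelles (V-ATPase) 0.371% ± 0.0942, with *vha-2*, *vha-10* and *vha-9* in front. Lipid-binding *lbp* genes held 0.320% ± 0.0462, led by *lbp-6*, *lbp-9* and *lbp-3*. Metal-binding genes came in unequal pairs. Of the ferritins, which store iron, *ftn-2* stood at 916 TPM ± 178 and *ftn-1* at 3.56 TPM ± 1.19. Of the metallothioneins, *mtl-2* stood at 350 TPM ± 79.8 and *mtl-1* at 4.59 TPM ± 1.70. *prdx-2*, a peroxiredoxin, stood at 809 TPM ± 80.6, ahead of the superoxide dismutases *sod-4* (218 TPM ± 15.5), *sod-1* (175 TPM ± 25.9) and *sod-2* (81.2 TPM ± 10.5).

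Stress and detoxification families were small in these unexposed animals. The 75 cytochrome P450 genes held 0.0159% ± 0.000669 of all TPM, and the highest, *cyp-35A2*, stood at 20.7 TPM ± 3.96. Glutathione S-transferases held 0.142% ± 0.0181, led by *gst-27* (322 TPM ± 26.2), *gst-26* and *gst-10*. Heat shock proteins held 0.234% ± 0.0401, led by *hsp-3*, a chaperone of the endoplasmic reticulum, and then *hsp-12.2* and *hsp-1*. The caenacins, antimicrobial peptides of the epidermis, held 0.00817% ± 0.00120, led by *cnc-8* at 38.9 TPM ± 6.98. Enzymes of fatty acid elongation were better represented than those of desaturation, at 0.218% ± 0.0252 led by *elo-6*, *elo-5* and *elo-2*, against 0.102% ± 0.00998 led by *fat-6*, *fat-2* and *fat-7*.

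The tagged subunit was itself abundant. *rpl-22*, which encodes protein L22 of the large ribosomal subunit, stood at 4431, 2785 and 2470 TPM and was the most abundant gene of its family. On TPM, replicate 1 was the highest library, as it was for 69.2% of genes at 1 TPM or more. Scaling by the median of ratios divided replicates 1, 2 and 3 by 1.31, 0.917 and 0.831, so the difference was smaller on that scale. The array carries *rpl-22* as well, and its RNA cannot be told apart from that of the chromosomal gene. *rpl-36.A* (2904 TPM ± 309) and *rpl-39* (2344 TPM ± 152) came next. Of the 78 ribosomal protein genes, 76 stood at a mean of 100 TPM or more, a level reached by 4.63% of all protein-coding genes. The exception at the bottom was *rpl-42*, at 0.816 TPM in replicate 1, listed at 0 in replicate 2 and at 0.275 TPM in replicate 3. Whether that 0 is a low level or a failed estimate was not tested, so genes at 0 are given here as listed at 0.

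Other parts of the translation machinery were high as well. The 6 elongation factor genes held 0.549%, 0.341% and 0.399% of all TPM. All 6 were highest in replicate 1, against 69.2% of genes at 1 TPM or more. After scaling by the median of ratios the count was 1 of 6, against 39.7%. *eef-1A.1*, which brings aminoacyl-tRNA to the ribosome, stood at 3236, 1908 and 2293 TPM, ahead of *eef-2* (518 TPM ± 69.0), the translocation factor. The lowest of the group was *eef-1B.2* at 183 TPM ± 32.1.

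Genes for entry into the endoplasmic reticulum were also among the first 100. A list of 27 such genes was drawn up after these values were seen, so its level reflects that choice. It held 1.65% ± 0.143 of all TPM, and 18 of the 27 stood at 100 TPM or more, against 4.63% of all protein-coding genes. *cyn-5*, a prolyl isomerase, was the most even gene of the list at 2616, 2711 and 2670.0 TPM. *sec-61.B* and *emo-1*, subunits of the channel through which new proteins cross the membrane, stood at 2347 TPM ± 306 and 1396 TPM ± 371. *trap-4*, of a complex attached to that channel, and *crt-1*, the chaperone calreticulin, stood at 1453 TPM ± 126 and 1427 TPM ± 190. *uggt-1*, which checks the folding of glycoproteins, was the lowest at 10.2, 9.33 and 6.21 TPM.

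The gene that gave the promoter was abundant, and on TPM it was even across libraries. *tbh-1*, on chromosome X from 15500259 to 15504895, stood at 1592, 1722 and 1684 TPM, a mean of 1666 TPM ± 66.8 and rank 66. It overlaps *suox-1* and *H13N06.7*, and without a stated strand setting their reads cannot be told apart from its own. *tdc-1* encodes tyrosine decarboxylase, the enzyme before TBH-1 in octopamine synthesis, and stood at 23.6, 8.60 and 8.33 TPM. The ratio of *tbh-1* to *tdc-1* was therefore 67.6 in replicate 1 and 200.2 and 202 in the others. *cat-1*, the transporter that loads monoamines into synaptic vesicles, stood at 1.76, 1.37 and 1.01 TPM. On TPM, both *tdc-1* and *cat-1* were highest in replicate 1, and *tbh-1* was lowest there. Scaling by the median of ratios divided replicates 1, 2 and 3 by 1.31, 0.917 and 0.831, so *tbh-1* was less even on that scale. Of these 3 genes, 1 was then highest in replicate 1. The labels do not say how much of the *tbh-1* locus the promoter fragment holds, so a part played by the array in the *tbh-1* value was not tested.

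**Figure D3:**
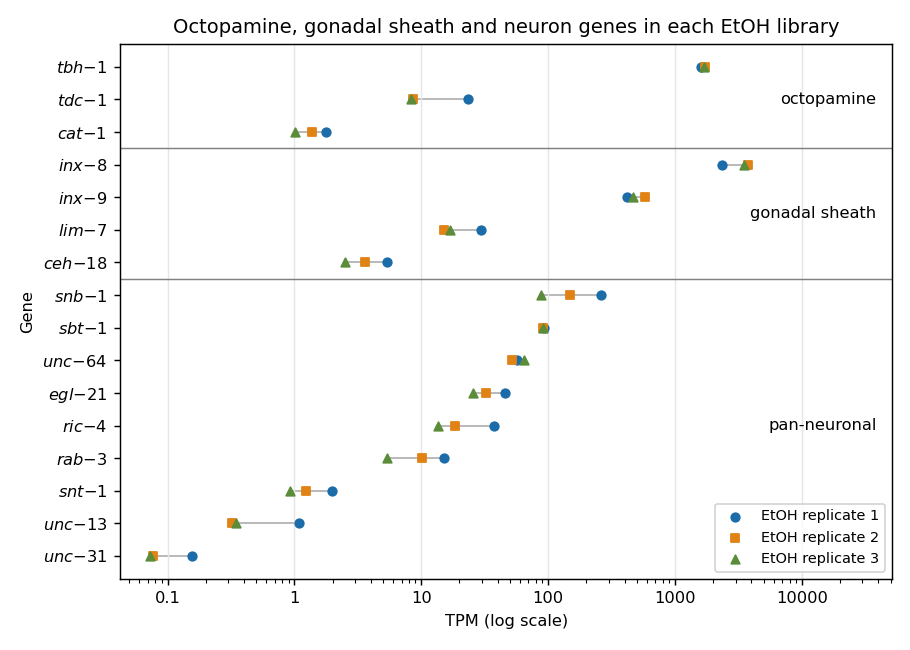
TPM in each EtOH library, on a log axis, of genes of octopamine synthesis and transport (top), markers of the gonadal sheath (middle) and chosen pan-neuronal markers (bottom). Each symbol is 1 library. *tbh-1* and *inx-8* stand above 1000 TPM, while *unc-13* and *unc-31* lie near or below 1 TPM.

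Markers of the gonadal sheath differed widely in level. *inx-8* and *inx-9* encode the innexins through which sheath cells are coupled to germ cells, and lie side by side on chromosome IV. *inx-8* stood at 2344, 3761 and 3498 TPM and *inx-9* at 415, 579 and 464 TPM, both lowest in replicate 1. They are close in sequence, so the authors' counting may have divided reads between them. The transcription factor genes of the sheath were lower, *lim-7* at 29.4, 15.2 and 16.8 TPM and *ceh-18* at 5.40, 3.62 and 2.48 TPM, and these were highest in replicate 1. The 4 genes held 0.279%, 0.436% and 0.398% of all TPM, and 0.0510% on average without *inx-8*. Of all 24 innexin genes, *inx-8* alone was 79.1% of the family's TPM, and *inx-12* followed *inx-9* at 106 TPM ± 16.6.

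Neuronal markers were low, although the libraries are labelled as *tbh-1* expressing neurons. The 25 pan-neuronal genes had a median of 5.63 TPM, which is below the median of 8.57 TPM over protein-coding genes at 1 TPM or more and above the 1.15 TPM over all protein-coding genes. They held 0.0630%, 0.0413% and 0.0335% of all TPM. *snb-1*, the synaptobrevin of synaptic vesicles, was the only one at a mean of 100 TPM or more, at 260.3, 149.6 and 88.3 TPM. *sbt-1*, a chaperone for peptide processing, stood at 93.2, 91.4 and 90.9 TPM, *unc-64*, the syntaxin, at 56.9, 52.1 and 64.9 TPM, and *egl-21*, a carboxypeptidase that trims neuropeptides, at 45.8, 32.4 and 25.7 TPM. The vesicle release factors *unc-13* and *unc-31*, chosen after their values were seen, stood at 0.586 TPM ± 0.439 and 0.101 TPM ± 0.0470. *cla-1*, an active zone protein, was the lowest at 0.0101, 0.00233 and 0.00688 TPM.

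The label was therefore not matched by neuronal markers as a class, and the libraries are described here by the promoter and not as neuronal RNA. In the plot of octopamine, sheath and neuron genes, the sheath innexins lie above every neuronal marker. The summed sheath list was 4.44, 10.5 and 11.9 times the summed pan-neuronal list in replicates 1, 2 and 3. That ratio rested on *inx-8*, and without it was 0.714, 1.45 and 1.44. Genes that mark other transmitter classes were close to 0. Of 16 such genes only *bas-1*, an aromatic amino acid decarboxylase, stood at 1 TPM or more, at 5.24, 4.24 and 6.50 TPM, and *unc-25* and *unc-17*, of GABA and acetylcholine neurons, stood at 0.957 TPM ± 0.106 and 0.619 TPM ± 0.106. *cat-2* (dopamine) was listed at 0 in all 3 libraries. *gcy-8*, whose promoter drives the marker GFP of the array in the AFD thermosensory neurons, stood at 0.406, 0.379 and 0.507 TPM.

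Markers of tissues that are not known to use *tbh-1* were plentiful. The 20 intestinal genes had a median of 748 TPM and 14 stood at 100 TPM or more. They held 2.09%, 2.24% and 2.37% of all TPM, led by the vitellogenins and proteases named above. The gut transcription factor *elt-2* was the lowest of them at 12.1, 9.97 and 9.96 TPM. The summed intestinal list was 33.2, 54.1 and 70.6 times the pan-neuronal list. Whether this RNA came from tagged ribosomes or was carried along was not tested.

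Muscle genes differed widely in level. Of the 21 genes of body wall type muscle, some of which the contractile sheath also expresses, 15 stood at 100 TPM or more and the list held 0.982%, 0.708% and 0.737% of all TPM. *pat-10* stood at 3446, 2537 and 2267 TPM, the myosin light chain *mlc-2* at 1903, 1278 and 1746 TPM, and the actins *act-4* and *act-3* at 708 TPM ± 110 and 534 TPM ± 78.8. The actin copies are near-identical, so their separate levels are uncertain. The giant protein *ttn-1*, a titin-like gene, was the lowest at 0.293, 0.0882 and 0.127 TPM. Of the myosin heavy chains, chosen after their values were seen, *unc-54* stood at 114 TPM ± 38.0 and *myo-3* at 2.23 TPM ± 0.538. Also chosen so was *hlh-1*, the muscle transcription factor, at 0.866 TPM ± 0.564 (SD, n = 3).

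Gene span went with level only in part. Of the 4 muscle genes that span over 10 kb, *lev-11*, the tropomyosin gene, stood at 409 TPM and the other 3 below 1 TPM. The 17 shorter ones had a median of 159 TPM, but *myo-3* and *hlh-1* are among them. Of the pan-neuronal genes, the 6 over 10 kb had a median of 0.876 TPM and the 19 shorter ones 8.33 TPM. Over all protein-coding genes, cut by span into 4 equal groups, 8.26% of the shortest group stood at 100 TPM or more and 1.86% of the longest group. The shortest group, with spans up to 1176 bp, gave 59 of the first 100 genes. The share of genes at a mean of 1 TPM or more went the other way, from 42.8% in the shortest group to 64.4% in the longest. The part of span in the low values of long markers was not tested.

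**Figure D4:**
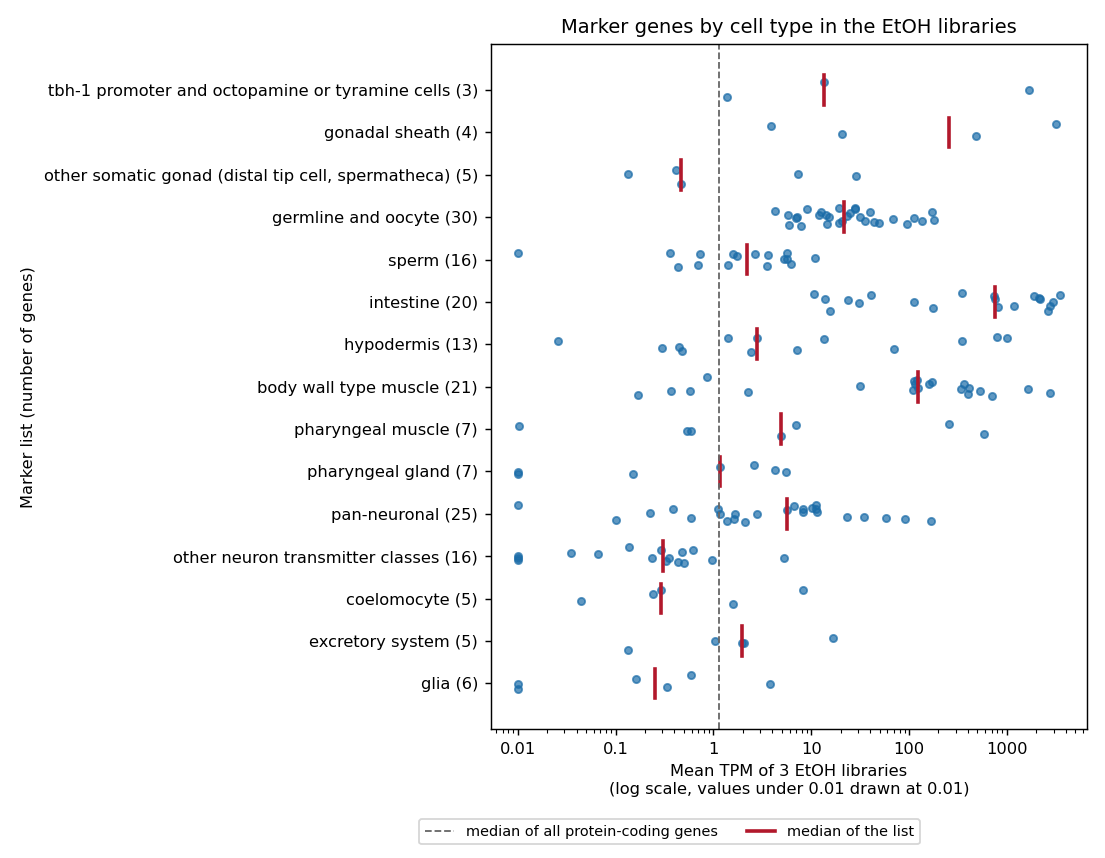
Mean TPM over the 3 EtOH libraries of each marker gene (dots, log axis), by cell type list (vertical axis, number of genes in brackets). The red bar is the median of the list and the dashed line the median of all protein-coding genes, 1.15 TPM. The intestinal and muscle lists have medians of 748 and 123 TPM and the pan-neuronal list 5.63 TPM. The sheath median of 253 TPM lies between 2 high and 2 low genes, and is 20.5 TPM without *inx-8*.

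The plot of marker lists also shows how uneven the surface tissues were. Of 13 hypodermal genes, the adult cuticle collagens *col-119*, *col-140* and *col-19* stood at 996 TPM ± 188, 800 TPM ± 118 and 348 TPM ± 28.5, and *grd-3* at 69.6 TPM ± 8.68. *bli-1*, a cuticle collagen, was the lowest at 0.0206 TPM in replicate 1, listed at 0 in replicate 2 and at 0.0565 TPM in replicate 3. The whole *col* family of 157 genes held 1.13% ± 0.122 of all TPM, led by *col-122* (1190 TPM ± 152), *col-20* (1046 TPM ± 69.6) and *col-119*. The list of pharyngeal muscle rested on *tni-4* (589 TPM ± 140) and *mlc-3* (255 TPM ± 120), while *ceh-22*, its transcription factor, was listed at 0 in replicates 1 and 2 and at 0.0308 TPM in replicate 3.

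Several further marker lists had medians below the 8.57 TPM of protein-coding genes at 1 TPM or more. Glial, coelomocyte, excretory and pharyngeal gland markers had list medians of 0.251, 0.289, 1.98 and 1.16 TPM, against 1.15 TPM over all protein-coding genes. Their highest members were *itx-1* (3.82 TPM ± 0.0643), *cup-5* (8.27 TPM ± 3.28), *aqp-8* (16.8 TPM ± 4.82) and *phat-2* (5.57 TPM ± 2.23). Among markers of other somatic gonad cells, *hlh-12*, a gene of the distal tip cell, stood at 26.1, 30.7 and 29.0 TPM. It lies within *spp-10*, which stood at 2304 TPM ± 383 on the other strand, so their reads cannot be told apart. *fkh-6* stood at 7.36 TPM ± 2.02, and *lag-2*, the ligand that the distal tip cell shows to germ cells, at 0.0620 and 0.340 TPM in replicates 1 and 2 and listed at 0 in replicate 3.

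Germline and oocyte genes were present at moderate levels and depended on the library. All 30 stood at 1 TPM or more, with a median of 21.8 TPM. They held 0.232% of all TPM in replicate 1, 0.0761% in replicate 2 and 0.0654% in replicate 3, and 0.0707% on average without replicate 1. *cey-2*, an RNA-binding protein of germ cells, stood at 364, 101 and 73.1 TPM. *cpg-2* and *cpg-1*, chondroitin proteoglycans of the eggshell, stood at 329.7, 97.0 and 88.0 TPM and at 222, 62.3 and 55.9 TPM. *pos-1*, a maternal zinc finger protein, stood at 223, 98.0 and 90.5 TPM, and *syp-1*, of the synaptonemal complex, was the lowest at 7.21, 2.74 and 2.90 TPM. Replicate 1 was the highest library for all 30, also after scaling by the median of ratios, against 69.2% (39.7% scaled) of genes at 1 TPM or more.

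The eggshell genes did not move as a block between libraries. Of 15 eggshell and vitelline layer genes, 13 were highest in replicate 1, against 69.2% of genes at 1 TPM or more. The exceptions were *perm-2* and *perm-4*, highest in replicate 3. After scaling by the median of ratios, 12 of the 15 were highest in replicate 1, against 39.7%. The ratio of *perm-2* to *cpg-2* was 202 in replicate 1, 791 in replicate 2 and 941 in replicate 3. The list's lowest member, *perm-1*, stood at 8.41, 3.18 and 3.01 TPM. Some of these genes are on the germline list too, so the 2 counts are not separate evidence. Sperm genes had another order, since 8 of the 11 at 1 TPM or more were highest in replicate 3 (15.9% of all genes at that level) and 0 in replicate 2. After scaling by the median of ratios, all 11 were highest in replicate 3, against 36.5%. *msp-31*, a major sperm protein gene from a family of near-identical copies, stood at 13.7, 7.56 and 11.6 TPM, and *spe-9* was listed at 0 throughout.

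**Figure D5:**
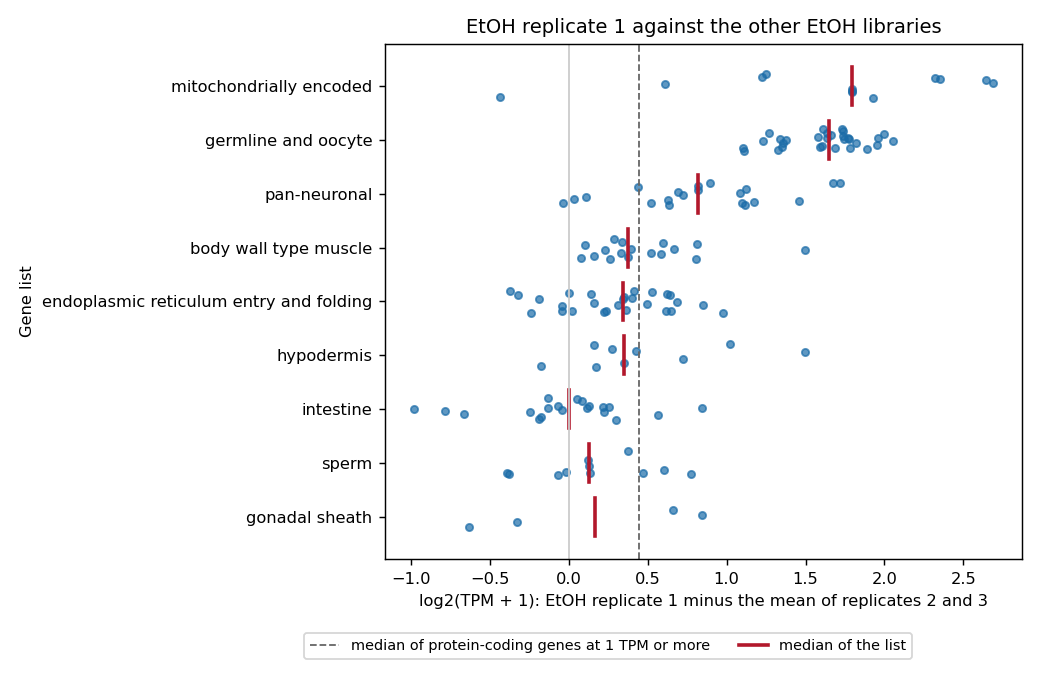
Difference in log2(TPM + 1) between EtOH replicate 1 and the mean of replicates 2 and 3 for each gene at 1 TPM or more (dots), by gene list (vertical axis). The red bar is the list's median and the dashed line the median of protein-coding genes at 1 TPM or more, 0.45. All germline genes lie right of 1.10, and the intestinal median lies at 0.00.

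Mitochondrially encoded genes differed even more between libraries. The 12 protein-coding genes of the mitochondrial genome summed to 3286, 1635 and 457 TPM. All 12 were lowest in replicate 3, as were 5575 of the 10344 genes at 1 TPM or more. Of the 12, 10 were highest in replicate 1, against 69.2% of those genes. The count stayed at 10 after either rescaling, against 67.2% (protein-coding TPM) and 39.7% (median of ratios). *ctc-1*, a cytochrome oxidase subunit, stood at 733, 306 and 78.7 TPM, *ctc-3* at 629, 424 and 112 TPM, *ctb-1*, cytochrome b, at 509.7, 211 and 82.2 TPM, and *ctc-2* at 385, 236 and 86.8 TPM. *ndfl-4* was the lowest at 0.685, 1.93 and 0.633 TPM. These RNAs are translated by mitochondrial ribosomes, which do not hold the tagged subunit. The 10 nuclear genes of the ATP synthase family held 0.912%, 0.757% and 0.757% of all TPM, and 0 of them spanned 2-fold or more.

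The plot of replicate 1 against the others sets these lists side by side. The median difference was 1.79 for mitochondrially encoded genes, 1.65 for germline genes and 0.82 for pan-neuronal genes on log2(TPM + 1), against 0.45 over genes at 1 TPM or more. Muscle and hypodermal lists were close to that background at 0.37 and 0.35. After scaling by the median of ratios, the background was −0.05 and the same lists stood at 1.26, 1.10, 0.34, −0.19 and −0.15. Of the 20 pan-neuronal genes at 1 TPM or more, 19 were highest in replicate 1, against 69.2% of all genes at that level. After scaling the count was 15, against 39.7%. On TPM, the pan-neuronal, germline and mitochondrial shares all fell from replicate 1 to replicate 3. So did the shares of the hypodermal list and of the V-ATPase genes, among others, while the intestinal share rose. Of the 10344 genes at 1 TPM or more, 5575 were lowest in replicate 3. What the falling shares have in common was not tested. The pan-neuronal share rested in part on *snb-1*, without which its mean was 0.0293% in place of 0.0460%. FLP neuropeptide genes, a mostly neuronal class, did not share the excess after scaling, with 8 of 29 highest in replicate 1, against 39.7%.

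The widest genes were mostly mitochondrial. Of the 10 genes at a mean of 10 TPM or more with the largest span between libraries, 6 were mitochondrially encoded (*nduo-2*, *nduo-4*, *nduo-5*, *nduo-1*, *ctc-1* and *atp-6*). *nduo-2*, a subunit of respiratory complex I, stood at 66.9, 17.1 and 2.66 TPM. The widest was the collagen *col-135* at 66.7, 8.51 and 1.13 TPM, and *C37C3.18*, described as translation initiation factor 5, stood at 36.4, 5.07 and 2.31 TPM. The other two had their highest value in replicate 3. *Y19D2B.1* stood at 7.04, 66.9 and 94.6 TPM and *iffb-1*, described as initiation factor 5B, at 13.1, 6.64 and 63.6 TPM. In all, 3146 of 10344 genes spanned 2-fold or more between the 3 libraries, and 187 of 9946 without replicate 1.

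Neuropeptide genes differed widely in level. NLP peptides held 0.346% ± 0.0180 of all TPM, and the highest were *nlp-40*, a peptide known to be released by the intestine, at 968, 1062 and 951 TPM, *nlp-36* at 894, 980.3 and 1031 TPM and *nlp-77* at 454, 416 and 298 TPM. The 31 FLP peptide genes, a mostly neuronal class, held 0.0571% ± 0.00813, led by *flp-10* at 162, 149.9 and 115 TPM, *flp-6* at 87.7 TPM ± 9.24 and *flp-32* at 81.4 TPM ± 9.31. Of the 29 FLP genes at 1 TPM or more, 21 were highest in replicate 1, close to the background of 69.2%, and 8 after scaling, against 39.7%. Insulin-like peptides held 0.0193% ± 0.00214, with *ins-22* and *ins-23* at 27.3 TPM ± 8.14 and 27.3 TPM ± 6.03, which their spread does not tell apart, and *ins-27* at 25.9 TPM ± 4.13.

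Receptors for octopamine and tyramine were low. *octr-1*, an octopamine receptor, stood at 6.72, 11.5 and 8.99 TPM, and was highest in replicate 2. *tyra-2*, a tyramine receptor, stood at 4.59 TPM ± 1.02 and *ser-6*, an octopamine receptor, at 4.39 TPM ± 1.05. *ser-3*, a further octopamine receptor, stood at 1.42 TPM ± 0.462, and *ser-2* was the lowest, at 0.0898 TPM in replicate 1 and listed at 0 in the others. *atg-9*, the membrane protein of autophagy named in the study's title, stood at 6.78, 1.96 and 0.948 TPM, a mean of 3.23 TPM ± 3.11 in which replicate 1 was well above the others.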

How the data were processed

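The authors deposited TPM values for 46904 genes, and only the 3 EtOH columns were used. The submitters' processing notes name HISAT2, StringTie 2.1.4, Trimmomatic 0.36, bcl2fastq 2.20 and DESeq2 1.28.1, with build WBcel235. For HISAT2 no version, and for counting no strand setting, is given in the sources used here. Per the labels' protocols, ribosomes were pulled down with anti-HA antibody and SureSelect XT HS2 libraries were made.

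Values of 0.0001 TPM were set to 0. Sums, ranks, means and SDs were computed with pandas 2.3.3 and numpy 2.4.6 in Python 3.11.15, and plots were drawn with matplotlib 3.10.9. Differences between libraries are on log2(TPM + 1). The code was tested on simulated data. With 1 group there is no contrast, so no test was made. SDs measure the spread of the 3 libraries and cover counting error of unknown size. Sequence names were replaced by the reference's symbol for the same ID in 799 protein-coding genes, and 44017 of the IDs matched.

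Members, 19 lists and 37 families were chosen with earlier results of these data known, and the endoplasmic reticulum list and the gene span classes after the values were seen. Named genes are the 30 most abundant, the 4 highest and the lowest of each list, the 3 highest of each family, the 10 widest at a mean of 10 TPM or more, and *atg-9*, *gcy-8*, *rpl-22*, *cat-1*, *tdc-1* and *tbh-1*. *perm-1*, *perm-3*, *rpl-42*, *unc-13*, *unc-31*, *unc-54*, *myo-3*, *hlh-1*, *mtl-1*, *ftn-1*, the genes overlapping another, and further members of small families were added after their values were seen. Alternatives were other scalings, filters and pseudocounts, the median in place of the mean, lists without their top gene, and each library left out in turn.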

Additional observations from a re-analysis of the deposited data

How the results depend on the processing

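Of the alternative values, 56 moved by less than the spread between libraries, or by at most 1.5 times for a count, and 16 moved by more. Rescaling TPM to protein-coding genes moved the 20 most abundant genes from 29.0% to 33.3% of all TPM and the intestinal list from 2.23% to 2.56%. Leaving out its most abundant gene moved the sheath list from 0.371% to 0.0510%, the intestinal list to 1.88%, the muscle list from 0.809% to 0.534% and the pan-neuronal list from 0.0460% to 0.0293%. Genes at 1 TPM or more in every library numbered 9367, against 3892 at 10 TPM or more. With values of 0.0001 kept and no filter on level, the count was 20191, which is every protein-coding gene. The 3146 genes that spanned 2-fold became 434 with a pseudocount of 10, 1044 at a mean of 10 TPM or more and 1998 after median-of-ratios scaling. They ranged from 187 to 2831 when each library was left out, and were 2032 without replicate 3. Replicate 1 thus carried most of that count, and the cause was not tested.

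The 20 most abundant genes shared 19 or 20 members with the ranking under each alternative. The germline, mitochondrial and pan-neuronal counts of genes highest in replicate 1 were rechecked under scalings chosen after the data were seen, and were 30, 10 and 15 to 17 genes. Also chosen then, median-of-ratios scaling moved the proteasome count from 28 to 6 and the FLP count from 21 to 8, and leaving out *inx-8* moved the mean ratio of the sheath to the pan-neuronal list from 8.95 to 1.20. No paired analysis was possible because only 1 group was described. Depth is unknown, so low values have no interval and a 0 is only a listed 0.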

Other observations

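Ribosomal protein genes with *rpl* or *rps* names were the largest group among the 100 most abundant genes, at 28 of them. A sequence name only is carried by 17 of the 100, against 3979 of the 10344 genes at 1 TPM or more, a larger share. *W01D2.1* and *C37A2.7*, among the 17, and *rla-1* are also described as ribosomal proteins and are not in that count of 28. The marker lists account for 11 of the 100. The others include *ubl-1* and *ubq-2*, which encode ubiquitin fused to a ribosomal protein, at 1954 TPM and 1534 TPM. Respiratory genes of the nucleus were *cox-6B* (1508, 1348 and 1558 TPM) and *cox-5A* (1451, 1314 and 1493 TPM), of cytochrome oxidase, and *mai-2* (1676, 1826 and 1961 TPM), an inhibitor of the ATP synthase. These 3 genes varied far less between libraries than the mitochondrially encoded ones. Of metabolic genes, *ahcy-1*, adenosylhomocysteinase of the methionine cycle, stood at 2340.0, 1878 and 1648 TPM, *msra-1*, which repairs oxidised methionine, at 1663, 1850 and 1699 TPM, and *acbp-1*, which binds acyl-CoA, at 1212, 1503 and 1611 TPM. Further genes were *ost-1*, which encodes the basement membrane protein SPARC, at 1529, 1389 and 1190 TPM, and the peroxidase *skpo-1* at 1186, 1450.3 and 1391 TPM.

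The most abundant transcripts that are not protein-coding were ribosomal RNA. *rrn-3.1*, a copy of the large ribosomal RNA gene, stood at 42696, 50499 and 40868 TPM, and *rrn-1.2*, of the small subunit, at 21325, 38141 and 24494 TPM. *rrn-3.56*, a ribosomal RNA gene listed as a pseudogene, stood at 25989, 21320 and 16848 TPM, and was the only one of these highest in replicate 1. *Y47G6A.36*, a non-coding RNA gene without a described function, stood at 1095, 1461 and 1880.4 TPM. These genes were chosen after their values were seen.

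Histone genes held 0.142% ± 0.0177 of all TPM, led by *his-37*, *his-35* and *his-72* at 301 TPM ± 74.7, 288 TPM ± 45.6 and 184 TPM ± 21.2. Proteasome genes held 0.232% ± 0.0285 over 33 genes, led by *pbs-1*, *pbs-3* and *pas-5*, and 28 of the 33 were highest in replicate 1, against 69.2% of genes at 1 TPM or more. After median-of-ratios scaling that count was 6 of 33, against 39.7%. Tubulin genes held 0.0965% ± 0.0153, led by *tba-2* and *tbb-2* at 253 TPM ± 30.6 and 250.1 TPM ± 69.0, ahead of *tba-4*. *act-5*, the actin of intestinal microvilli, was the highest actin at 1181 TPM ± 153.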
